A study of Bos taurus and Mus musculus with 16 samples.

Results

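The genes described here are the Myc family and the proteins that share its partner Max, 8 genes in all: Bmyc, Myc, Mycn, Mycl, Max, Mga, Mnt and Mxi1. They were taken by symbol from 2 tables of normalized read counts, which hold all 8 among 16655 mouse genes and 7 among 14852 bovine genes (Bmyc was taken in mouse only). The set was chosen because Bmyc stood lower in edited than in control mouse morulae. The mouse comparison of these genes is therefore given as a description with no test, and the bovine comparison is tested.

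Polyadenylated RNA was sequenced from 16 libraries of preimplantation embryos. Mouse morulae were collected 3.25 days after fertilization (2 control and 2 edited libraries) and bovine blastocysts 7.0 days after fertilization (6 control and 6 edited libraries). Zygotes of every group had received BE3 mRNA, which encodes a base editor made of a Cas9 nickase joined to a cytidine deaminase. Controls got that mRNA alone, and edited embryos got it with a mix of single guide RNAs against Tead4 (mouse) or TEAD4 (bovine), which encodes a DNA-binding factor of the Hippo pathway needed for the trophectoderm in the mouse. No labelled group had guide RNAs without a target, so effects of the guides themselves cannot be told apart from those of the edited gene. The sources used here do not say how many embryos a library held or whether libraries came from separate injections, and p-values therefore measure only the spread between these libraries, which may be technical.

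Myc proteins bind DNA only as pairs with Max, joined through a basic helix-loop-helix leucine zipper, and the pairs activate genes of ribosome production, nucleotide synthesis and growth through E-box sequences. Mnt and Mxi1 also pair with Max and recruit repressors to the same sites, while Mga, a very large protein with a T-box as well, brings Max into a Polycomb complex (PRC1.6) that silences germline genes. Bmyc is a rodent gene whose product resembles the amino-terminal, transactivating part of Myc and has no DNA-binding or Max-binding domain. In mouse pluripotent cells, loss of Myc and Mycn is known to bring on a dormant state like diapause, and Mga is needed for the epiblast around implantation.

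The libraries held 3642907 to 6109425 reads assigned to genes in mouse and 817329 to 2501592 in bovine. Normalized reads are gene read counts divided by a size factor for each library. Mouse controls held 458 and 519 normalized reads of Tead4, against 57.2 and 76.5 in the edited morulae. TEAD4 ranged from 61.2 to 125 in bovine controls and from 22.6 to 65.6 in edited blastocysts, so the bovine groups overlapped, and its value of -1.25 ± 0.25 on the log2 scale (SE, 6 libraries a group) did not pass in limma (adjusted p = 0.235). All 5 trophectoderm and all 3 inner cell mass markers were listed in both species, with bovine CDX2 low at 1.46 to 19.9 normalized reads over all libraries, and of 3 primitive endoderm markers Sox17 was not listed in bovine. Of 10 cumulus and granulosa markers, 8 were not listed in mouse and the summed level of the other 2 was 8.85 to 30.5. The 3 listed of 7 blood markers, mostly Cd68, summed to 65.8 to 79.3 in mouse controls and 93.6 to 168 in edited morulae, and no sperm marker of 6 was listed in mouse. In bovine libraries the summed cumulus markers reached 36.5, the blood markers 31.6 and the sperm markers 19.9 normalized reads.

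The first gene to look at in sequence is Bmyc, because its reads could be mistaken for those of Myc. In GRCm38, Bmyc lies on chromosome 2, 25706739 to 25707721, plus strand, as 1 exon of 983 bases, and Myc on chromosome 15, 61985391 to 61990374, plus strand. The Bmyc coding sequence of GENCODE M21 has 510 bases (170 codons), against 1362 bases (454 codons, from an annotated CTG start) in the longest Myc form. Bases 1 to 505 of Bmyc aligned with bases 46 to 584 of Myc at 80.8% identity, and the 778 Myc coding bases after that stretch, where the helix-loop-helix zipper is encoded, have no counterpart in Bmyc. The most alike 75 bases without a gap, shown because they are where reads are hardest to tell apart, start at coding base 303 of Bmyc and 378 of Myc, with the 9 differing bases in capitals.
Bmyc: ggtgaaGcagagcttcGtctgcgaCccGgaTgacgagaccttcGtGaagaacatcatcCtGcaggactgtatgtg
Myc: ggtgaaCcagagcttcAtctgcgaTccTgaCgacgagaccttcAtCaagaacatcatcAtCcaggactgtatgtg
The longest identical run shared by the transcripts was 23 bases. The sources used here give neither the read length nor how reads matching more than one gene were handled. Exons of the antisense gene A230005M16Rik cover 617 of the 983 Bmyc bases (62.8%) on the opposite strand. The mouse table does not list that gene, and whether counting used strand is not stated there, so reads of Bmyc and of its antisense partner cannot be told apart.

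Bmyc was by far the most abundant member in control morulae. The control libraries held 1696 and 1614 normalized reads of it and the edited libraries 181 and 362, the values that chose this set. Both edited libraries lay far below both controls, and edited library 1 was the lower of the pair. The edited mean was 16.4% of the control mean, a difference of -2.69 ± 0.23 (limma SE, n = 2 per group) on the log2(value + 1) scale. That SE borrows variance from all genes and does not measure the spread of these libraries alone. The difference was -3.18 when edited library 2 was left out and -2.19 when edited library 1 was. Bmyc is also short, and the 1067 shortest tested genes (66 to 1601 exon bases) had a median log2 fold change of -0.42. Of those, 1.22% had a lower value than Bmyc, which is a description only, since Bmyc was chosen for its low value. With the length trend of each library removed, the Bmyc value was -2.40. The part of length in the Bmyc value was not tested.

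Myc differed in the other direction. Both control libraries held 96.1 normalized reads of it and the edited ones 174 and 189, so the groups did not overlap, and the edited mean was 1.89 times the control mean. The difference was 0.91 ± 0.26 (limma SE, n = 2 per group) on the log2 scale, and 0.85 to 0.96 without each library in turn. The values rest on 76 to 266 recovered reads per library. Mycn, on chromosome 12 (12936093 to 12941914, minus strand), and Mycl, on chromosome 4 (122995652 to 123002485, plus strand), the paralogs best known from neural and lung tumours, were close to the limit of detection. Mycn had 6 to 12 reads and Mycl 3 to 18 reads in a library, both with overlapping groups, and both were below the filter for testing, a mean of 10 normalized reads over the table.

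Because the exons differ in length, levels of different genes were compared per kb of exon. In the controls Bmyc stood at 1642 to 1726 normalized reads per kb, above 98.4% of 10666 tested genes with a known length, and Myc at 35.4 per kb, above 60.8%. Mga (28.7 per kb) and Max (20.7) came next and their ranges overlapped. Mnt (8.86), Mxi1 (5.25), Mycn (2.55) and Mycl (1.30) followed, and with 2 libraries each the neighbours in this order did not overlap. In the edited morulae the order of the 8 means was the same, with Bmyc at 276 and Myc at 66.8 per kb. There the ranges of Mga and Max overlapped, and so did those of Mycn and Mycl.

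**Figure D1:**
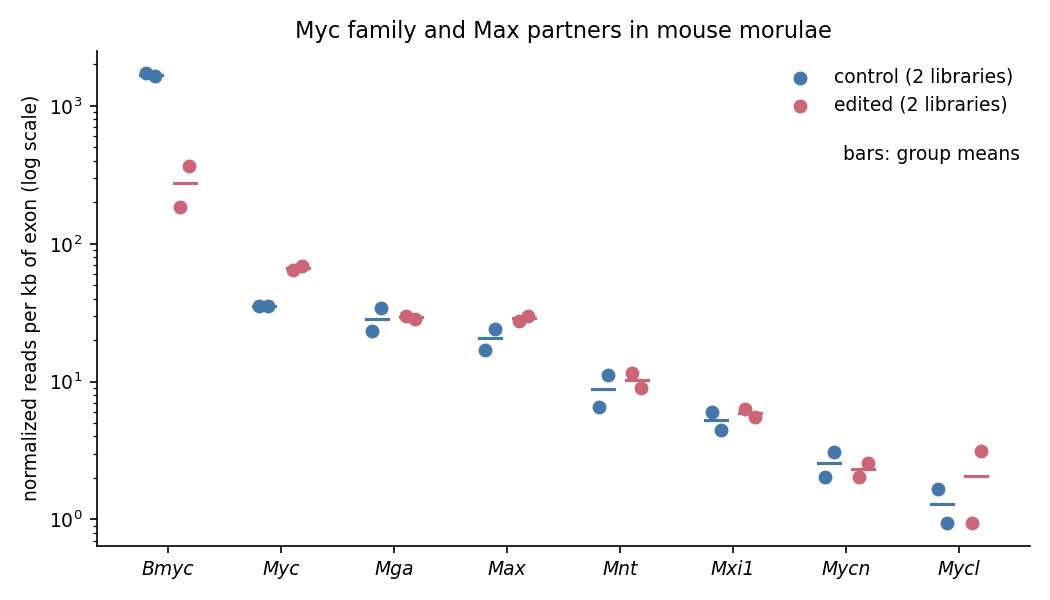
Normalized reads per kb of exon (log axis) of the 8 genes in each mouse library, with bars at group means. Bmyc lies far above the others in the controls (1642 to 1726) and lower in the edited libraries (184 and 368), and Myc lies higher in the edited libraries. For each of the other genes the control and edited groups lie close to each other or overlap.

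The balance between Bmyc and Myc differed between the groups. Per kb, Bmyc stood at 48.8 and 46.4 times Myc in the control libraries and at 2.87 and 5.31 times Myc in the edited ones. Of the summed per-kb level of the 4 Myc genes, Bmyc made up 97.8% and 97.7% in control and 73.3% and 83.1% in edited libraries. Myc made up 2.0% and 2.1% in control and 25.5% and 15.6% in edited libraries. These ratios lie within a library, so scaling a whole library does not change them. A length trend that differs between libraries can: with it removed, Bmyc was at -2.40 and Myc at 0.88, against -2.69 and 0.91. Reads of the antisense gene may also count towards Bmyc. The ratios follow from the values that chose the set and are a description.

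Max, the shared partner (chromosome 12, 76937269 to 76962201, minus strand), had 61.5 and 87.3 normalized reads in the controls, against 99.2 and 108 in the edited libraries. Its groups did not overlap, but the difference of 0.49 ± 0.30 on the log2 scale was about as large as the step between the 2 controls, and leaving out control library 1 gave 0.24 and control library 2 gave 0.74. For Mnt, Mxi1 and Mga the groups differed by less than the SE on the log2 scale, while the controls of Mnt and Mga lay apart. Mnt (chromosome 11, 74830920 to 74845725, plus strand) had 30.2 and 51.9 in the controls, against 53.4 and 41.8 in the edited libraries. Mxi1 (chromosome 19, 53310518 to 53375810, plus strand) had 41.3 and 30.4, against 42.9 and 37.6. Mga (chromosome 2, 119897228 to 119969581, plus strand) had 356 and 524, against 462 and 439. The groups overlapped for all of these, and the differences were 0.25 ± 0.40 for Mnt, 0.18 ± 0.41 for Mxi1 and 0.06 ± 0.21 for Mga.

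Of the 8 members, 6 passed the filter on low values in mouse, and the groups did not overlap for 3 of these (Bmyc, Myc and Max), where 57.8% of 11386 tested genes did not overlap. Nothing is read from this count, since the members were chosen from this comparison. In whole embryos, fewer cells of a type and less RNA per cell cannot be told apart. The summed level of 5 trophectoderm markers (Cdx2, Gata3, Krt8, Krt18, Tfap2c) was 6170 to 7107 normalized reads in control and 1894 to 2124 in edited libraries, with none of them at 0. Of the 5, 4 fell in limma and Tfap2c did not pass (643 to 667 in control, 612 to 894 in edited libraries). Of 3 inner cell mass markers, Pou5f1 rose by 1.40 on the log2 scale (limma adjusted p = 1.86e-05), while Sox2 (1.04) and Nanog (-0.58) did not pass. The part of these markers in the Bmyc and Myc values was not tested.

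The 5 genes nearest to Bmyc over the 4 mouse libraries, among 5499 others with a mean of at least 100, were picked by the root mean square distance of their log2 values after centring each gene. The nearest was D630045M09Rik, at a distance of 0.053, with controls at 545 and 508 normalized reads and edited libraries at 57.2 and 106. Then came Dusp4 (0.088), a phosphatase that acts on MAP kinases, with controls at 241 and 199.9 and edited libraries at 23.8 and 43.9. Tcf15 (0.11), a helix-loop-helix factor, Cnn2 (0.19), the actin-binding calponin 2, and Akr1b8 (0.23), an aldo-keto reductase, followed. All of them share with Bmyc high values in both controls and a lower value in edited library 1 than in edited library 2. With only 4 libraries this likeness is a description.

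**Figure D2:**
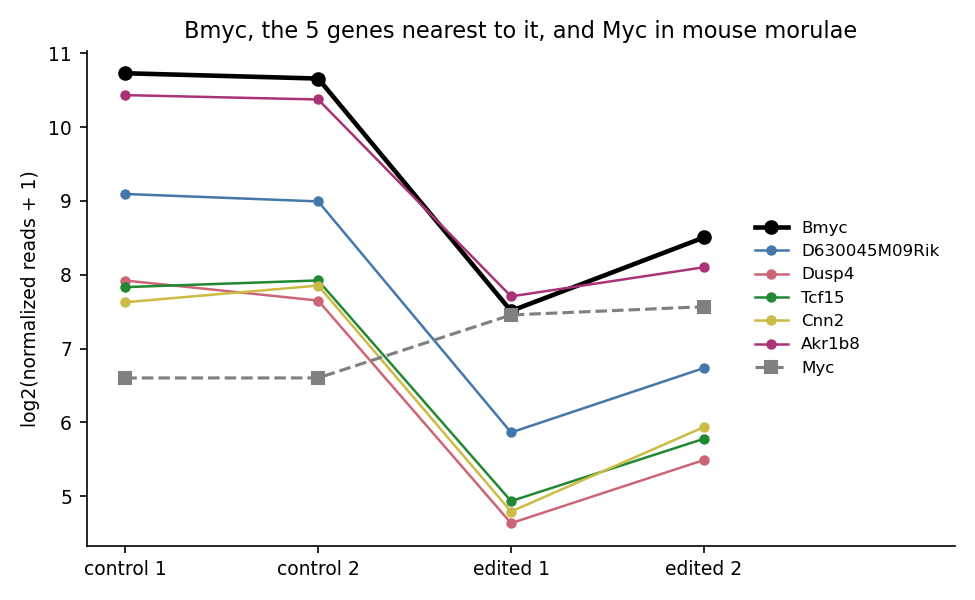
Levels as log2(normalized reads + 1) of Bmyc, the 5 genes nearest to it and Myc in the 4 mouse libraries; lines only join the values of 1 gene. The 6 profiles that include Bmyc lie lower in both edited libraries and are lowest in edited library 1, while Myc is higher in both edited libraries.

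In bovine blastocysts the question was whether the same genes differed after editing of TEAD4, in libraries whose values the reason given for the choice did not use. Only MGA, MAX and MYCN of the 7 members passed the filter, and none of the 3 was called by limma, where 0.0113% of 8884 tested genes were called (1 gene, and 522 at an unadjusted p under 0.05, 5.88%). The groups overlapped for all 7, where 0.248% of tested genes did not overlap. The other 4 were too sparse for the filter and are given by their reads. Each of the 7 was also tested alone by an exact two-sided permutation test over the 924 ways to split 12 libraries, whose smallest possible p is 0.0022. These p-values are not corrected for the 7 tests.

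MYC had few reads in the blastocysts, 10 over all controls and 36 over all edited libraries. Control libraries 1 to 6 held 0, 2, 6, 1, 0 and 1 reads of MYC, which is 0 to 8.75 normalized reads with a median of 0.842. Edited libraries 1 to 6 held 2, 4, 4, 12, 9 and 5 reads, which is 1.30 to 12.0 normalized reads with a median of 5.41. The edited values lay mostly above the controls, but control library 3 (8.75) lay above every edited library except library 4 (12.0). Control library 2 (3.08) lay above edited library 1 (1.30), so the groups overlapped. A count of 0 allows up to 3 reads, or 3.94 and 1.71 normalized reads in control libraries 1 and 5. The means were 2.25 ± 3.38 and 5.88 ± 3.65 normalized reads (SD, n = 6 per group), and the difference in mean log2(value + 1) was 1.42 (exact permutation p = 0.0519). Without each library in turn the difference was 1.19 to 1.84, with exact permutation p below 0.05 without control library 2 (0.0498), control library 3 (0.00866) or edited library 1 (0.0325), and up to 0.0996 otherwise. With every library scaled to the same total the exact permutation p was 0.0390. Without the filter on low values, limma gave MYC an adjusted p of 0.894 over all 14852 genes, and the authors' deposited table lists an unadjusted p of 0.0531. The MYC result thus lies at the threshold and turns on the scaling and on single libraries.

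MYCN ranged from 7.29 to 19.7 normalized reads (median 14.4) in control and from 8.03 to 25.9 (median 14.4) in edited blastocysts. The groups overlapped almost fully, with a log2 fold change of 0.06 ± 0.35 (95% interval -0.68 to 0.80, limma adjusted p = 0.979). MYCL had 0 to 8 reads in control and 1 to 8 in edited libraries, 25 and 26 reads over each group, and differed by 0.11 (exact permutation p = 0.859).

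MAX ranged from 18.3 to 43.7 normalized reads (median 30.7) in control and from 7.41 to 50.5 (median 26.0) in edited blastocysts. Its log2 fold change was -0.38 ± 0.36 (95% interval -1.13 to 0.36, limma adjusted p = 0.845). Edited library 2, the shallowest of all, had only 4 reads of MAX, and without it the value was -0.07. The spread within the edited group was thus wider than the difference between the groups.

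MGA was the most deeply counted bovine member, with 125 to 451 reads in a library. It ranged from 164 to 311 normalized reads (median 255) in control and from 199 to 287 (median 226) in edited blastocysts, with a log2 fold change of -0.06 ± 0.18 (limma adjusted p = 0.958). The 95% interval ran from -0.43 to 0.32, and the sign turned when libraries were scaled to the same total (0.07). MXI1 ranged from 3.94 to 14.4 normalized reads in control and from 2.83 to 16.1 in edited blastocysts (difference -0.49, exact permutation p = 0.264). MNT had 0 to 7 reads in control and 1 to 5 in edited libraries (difference 0.03, exact permutation p = 0.963). Both repressor genes thus overlapped between the groups across nearly their whole range.

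**Figure D3:**
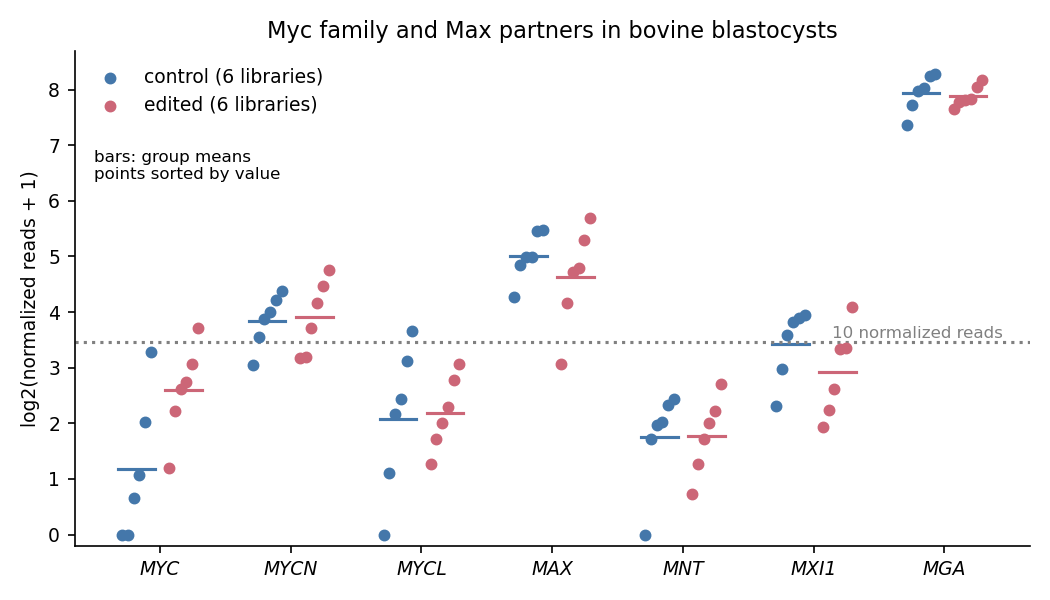
Levels as log2(normalized reads + 1) of the 7 genes in each of 12 bovine libraries, sorted within a group, with bars at the group means of the log2 values and a dotted line at the filter of 10 normalized reads. MYC, MYCL and MNT lie mostly below the line, as do most libraries of MXI1, and the groups overlap for every gene. MYC is the gene whose bars lie farthest apart (1.42).

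Side by side, the Myc difference was 0.91 in mouse and 1.42 in bovine, the latter at a few reads per library and not past its test. Max was at 0.49 in mouse and -0.38 in bovine, and Mga at 0.06 and -0.06. The 2 tables were normalized separately and stage differs with species, so no difference between the species was tested.

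**Figure D4:**
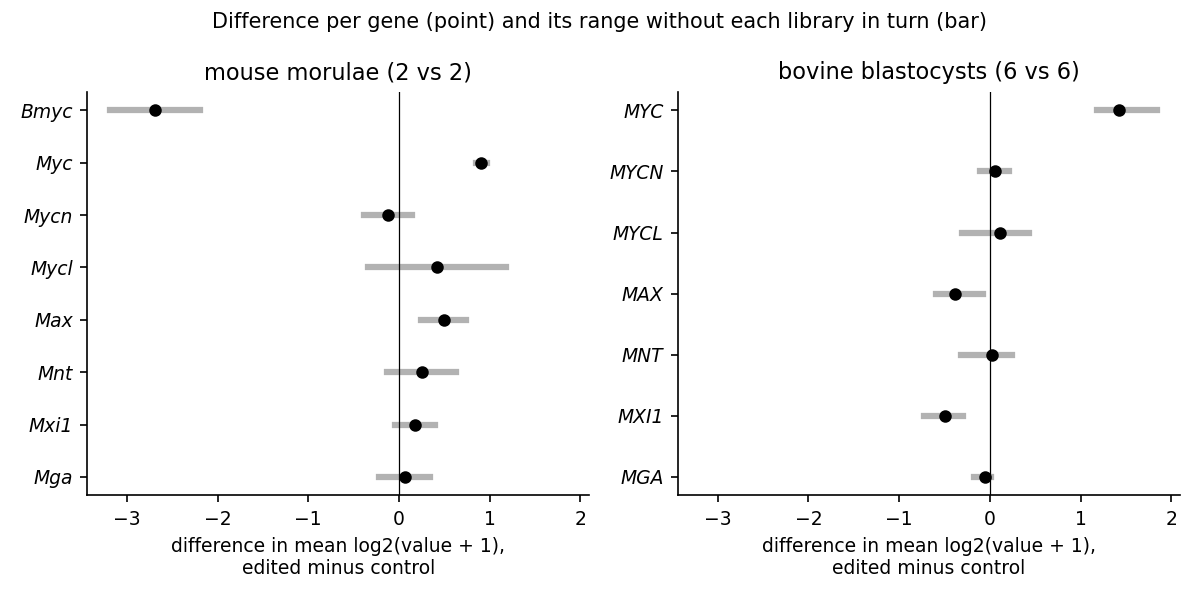
Difference in mean log2(value + 1), edited minus control, of each gene in mouse (left) and bovine (right), with a bar from the lowest to the highest value when each library is left out in turn. Bmyc (-2.69) and Myc (0.91) in mouse and MYC (1.42), MAX (-0.38) and MXI1 (-0.49) in bovine keep their sign in every such fit, as does mouse Max (0.49), and the bars of the other genes cross 0.

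The bovine genes most like MAX over the 12 libraries, among 2340 with a mean of at least 100, were NBDY (Pearson r = 0.915, Spearman rho = 0.825), which encodes a microprotein of mRNA decapping bodies, and NDUFA1 (r = 0.870, rho = 0.839), a subunit of respiratory complex I. TSPAN6, TIMM8A and MSN followed, with r from 0.805 to 0.867. Without edited libraries 2 and 5, the farthest from the MAX median, r was 0.778 for NBDY, 0.832 for NDUFA1 and 0.581 to 0.761 for the other 3. MYC was too sparse for this comparison. The likeness to MAX is a description, and what lies behind it was not tested.

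Other genes around the network were read as 9 lists, and their calls rest on the mouse comparison, where 15.3% of tested genes were called (6.92% higher, 8.38% lower) and the median of all genes was -0.0049. Of 5 other tested genes of the Max and Mlx network, Mlxipl rose and none fell (list median -0.18). Mlxipl, which encodes the glucose-responsive factor ChREBP, had 14.5 and 20.2 normalized reads in the controls, against 55.3 and 40.4 in the edited libraries (log2 fold change 1.41 ± 0.46, limma adjusted p = 0.0361), a call that held only without edited library 2 among the fits without 1 library and was lost with DESeq2.

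Of 12 tested cofactors of Myc, 3 rose and none fell, with a median of 0.41. When all libraries were scaled to the same total 6 rose, where 1113 of all 11386 tested genes did, against 788 before. Trrap, the scaffold of histone acetyltransferase complexes that Myc recruits, had 169 and 220.1 in the controls, against 342 and 325 after editing (0.79 ± 0.23). Ep400, the remodelling ATPase of one of those complexes, rose by 0.66 ± 0.21, a call lost with the length trend removed and with no filter on low values. Without either control library none of the 12 passed. Of 13 genes that act on Myc stability, Gsk3b, the kinase that marks Myc for degradation, fell by 0.61 ± 0.19 on the log2 scale (limma adjusted p = 0.0296), a call lost when any library but edited library 2 was left out and when libraries were scaled to the same total.

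Among 13 co-repressors of Mxi1, Mnt and their relatives, 1 rose and 2 fell (median -0.25, and -0.40 without edited library 2). Hdac1, a histone deacetylase of the Sin3 complex that also belongs to the Mga complex list, rose, with controls at 894 and 835 and edited libraries at 1792.5 and 1659.9 (0.997 ± 0.17 on the log2 scale, limma adjusted p = 0.000219). Sap30, a small subunit of the same complex, fell, with controls at 413 and 364 and edited libraries at 106 and 191 (-1.44 ± 0.25, limma adjusted p = 0.000304). The subunits thus moved apart, and both calls held in every fit without 1 library. Sap18 fell by 0.53 ± 0.17 on the log2 scale and passed only without edited library 2 among those fits. Its call was also lost with no filter on low values and at the same total. Of the 12 tested genes of the Mga complex, Hdac1 rose and none fell (median -0.01, and -0.09 without edited library 2).

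Of 16 tested germline genes that the Mga complex is known to bind, 1 rose and 1 fell (median -0.12). The share called was 12.5%, near the 15.3% of all tested genes, and nothing is read from it. Mael, a factor of the piRNA pathway, rose by 0.80 ± 0.25, with 123 and 137 normalized reads in control and 259 and 198 in edited libraries. Smc1b, a meiotic cohesin subunit, fell by 1.68 ± 0.47 on the log2 scale, with 41.3 and 53.1 in control and 16.2 and 12.0 in edited libraries. Both calls were lost without either control library, and that of Mael also without edited library 1.

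Of 26 genes of ribosome production that Myc is known to activate, 5 rose and 1 fell (median 0.17), beside 1 that rose without control library 1, 2 without control library 2 and 3 without edited library 1. Rrs1, a ribosome assembly factor, rose most, from 173 and 205 normalized reads in control to 522 and 392 in edited libraries (1.26 ± 0.22, limma adjusted p = 0.000333), and passed without each library in turn. Rrp12 (0.94), Nolc1 (0.77), Mybbp1a (0.66) and Ubtf (0.61) rose as well. Npm1, the abundant nucleolar chaperone, fell by 0.46 ± 0.16 on the log2 scale (limma adjusted p = 0.0492), a call lost when any library but edited library 2 was left out, with a pseudocount of 5, with a filter at 50 normalized reads, at the same total and with the replicate block.

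Of 26 Myc-activated genes of metabolism and growth, 2 rose and 1 fell (median 0.13), and 8 rose when libraries were scaled to the same total. At that scaling 1113 of all 11386 tested genes rose, against 788 before. The list median was 0.16 without either control library, 0.21 without edited library 1 and 0.09 without edited library 2. Odc1, the rate-limiting enzyme of polyamine synthesis and a textbook Myc target, fell, from 5928 and 4742 normalized reads in control to 2406 and 2964 in edited libraries (-0.99 ± 0.17, limma adjusted p = 0.000193), and passed without each library in turn. Tert, the telomerase catalytic subunit, rose by 1.22 ± 0.35, and Mat2a, which makes S-adenosylmethionine, by 0.70 ± 0.16. Of 8 tested genes that Myc represses, Ndrg1 (-1.60 ± 0.50) and Gadd45b (-1.30 ± 0.43), a stress and a growth-arrest gene, fell and none rose (median -0.03), and both calls were lost without either control library and with DESeq2. The Ndrg1 call was also lost without edited library 2, and the Gadd45b call without edited library 1, with no filter, at the same total and with the length trend removed.

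Of the 21 list genes called in mouse, 4 (Sap30, Hdac1, Rrs1 and Odc1) passed in every fit without 1 library, while leaving out control library 1 ended 17 of the calls and control library 2 ended 16. In bovine none of the tested genes of these 9 lists was called by limma. The largest differences in each list are given as values, all with limma adjusted p from 0.792 to 0.887 and overlapping groups. HDAC1 had 461 ± 92.9 normalized reads in control and 643 ± 82.4 in edited blastocysts (SD, 6 libraries a group), a value of 0.49 ± 0.16, and ING2, another Sin3 subunit, had -0.37. In the network and cofactor lists the values were 0.38 for MLX and -0.21 for MLXIP, and 0.54 for KAT5 and 0.46 for RUVBL2. HUWE1 and FBXL14, ubiquitin ligase genes, had -0.41 and -0.37, and RING1 of the Mga complex had -0.71. Of the germline genes TDRKH had 0.68, and DDX4 had 0.52, with edited libraries 4 and 5 at 84.3 and 87.2 normalized reads and every other library at up to 24.6. NIP7 (-0.49), POLR1B (0.47), UMPS (0.41) and PHB2 (0.37) led the Myc-activated lists. The 6 tested Myc-repressed genes had a median of -0.56, led by COL1A2 (-1.05) and GADD45A (-0.83). Of these, 3 had an unadjusted limma p under 0.05, where 5.88% of tested genes did and each other list held 0 or 1 such genes. Nothing is read from this count, since the list is small and was chosen with earlier results known. The 51 tested Myc-activated genes had a median of 0.09 in bovine and the 52 in mouse a median of 0.16, against 0.01 and -0.0049 over all genes. Among genes averaging at least 50, the medians over all genes were 0.05 in bovine and -0.04 in mouse. The ribosome and metabolism lists stood there at 0.20 and 0.06 in bovine and at 0.17 and 0.09 in mouse. These gaps were not tested.

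**Figure D5:**
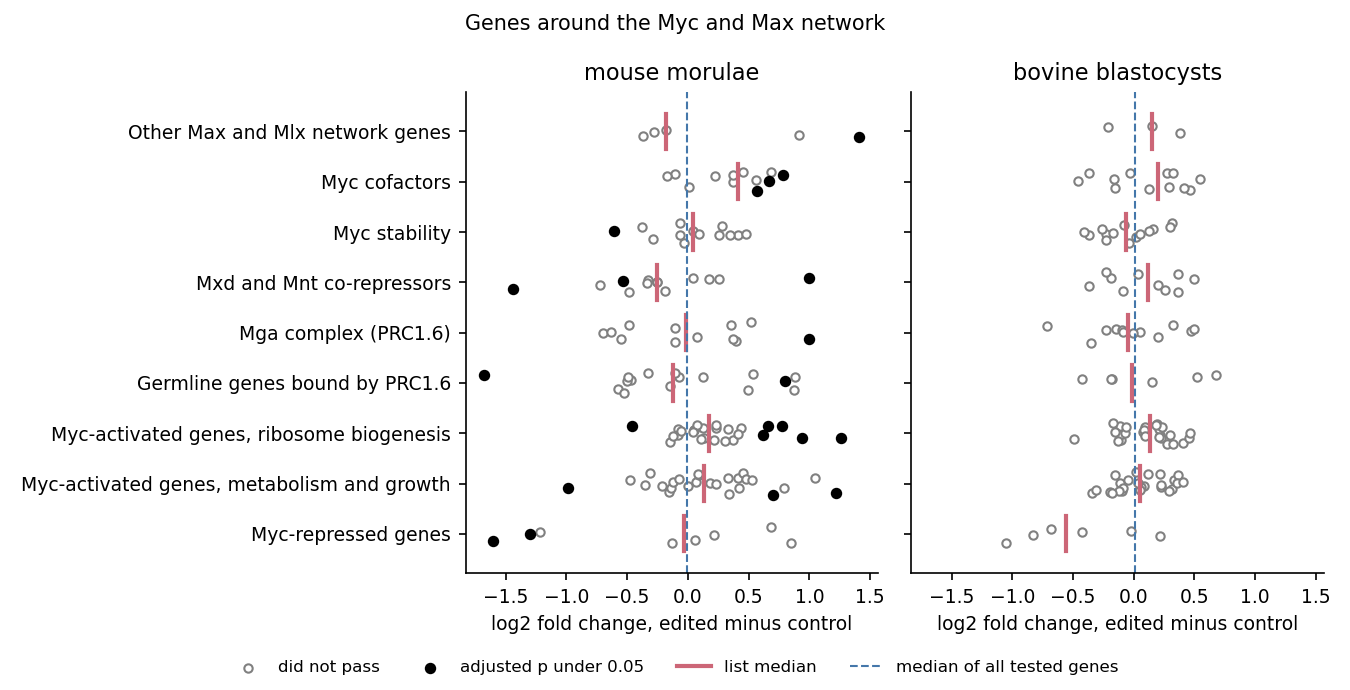
Log2 fold changes, edited minus control, of the tested genes of 9 lists around the network, in mouse (left) and bovine (right); filled points passed in limma, red bars are list medians and the dashed line is the median of all tested genes. In mouse filled points lie on both sides in the co-repressor, germline, and both Myc-activated lists, and in bovine no point is filled.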

How the data were processed

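Trimmomatic, HISAT2, featureCounts and DESeq2 were used on the builds mm10 and ARS-UCD1.2, per the submitters' processing notes, which name no versions. Each deposited signal value is a gene's reads over the size factor the authors gave its library, per the file headers. All values were whole multiples of 1 read (tolerance 0.05 reads), so reads were recovered. A count of 3 reads equals 2.13 to 3.79 normalized reads in mouse and 1.71 to 5.56 in bovine, depending on the library's size factor. Differences of that size can come from counting error alone. Next to these columns the authors deposited log2 fold changes, a test score and p-values from DESeq2, of which 1 p is quoted.

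Groups came from sample titles, and each species was fitted alone. Genes averaging at least 10 were tested as log2(value + 1), edited minus control, in limma 3.58.1 under R 4.3.3 (two-sided, Benjamini-Hochberg over all tested genes, threshold 0.05); low genes change by more than this scale shows. Adjusted p-values are from limma. edgeR 4.0.16 and DESeq2 1.42.0 on recovered reads were alternatives, and the fits were tested on simulated data. Mouse positions, exon lengths (union of exons) and sequences are from GENCODE M21 (GRCm38, the assembly of mm10). From each list, up to 6 called genes with the largest change were named, or 2 where none was called. One such gene and part of a sequence comparison are not reported here. The members and lists were chosen with earlier results of these data known.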

Additional observations from a re-analysis of the deposited data

Results flagged for a closer look

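Of 14 groups of 6 bovine libraries examined (7 genes, control and edited), 1 held a library far from the other 5. MNT was at 0 normalized reads in control library 1, where the other control libraries held 2.28 to 4.42, and the gap on the log2 scale took up 0.703 of the range of the group, above the limit of 0.625. A count of 0 allows up to 3.94 normalized reads in that library. Chance gives about 1 such case in 20 groups.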

How the results depend on the processing

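With 2 mouse libraries per group, the number of mouse genes called was 533 to 2573 without each library in turn, against 1742, and in bovine it was 1 in each such fit; DESeq2 on recovered reads called 5 bovine genes where limma called 1. Scaling to the same total put the median of all mouse genes at 0.12 and the share of higher genes among the calls at 61.9%, against 45.2%; in bovine the median went to 0.13. Values near 0 changed sign: mouse Mga was -0.00548 with the length trend removed, and bovine MGA was 0.0654 with every library scaled to the same total. Without 1 library, the log2 values ran from -0.13 to 0.63 for mouse Mnt, -0.0414 to 0.39 for Mxi1, -0.22 to 0.34 for Mga, and in bovine from -0.17 to 0.0125 for MGA and -0.11 to 0.21 for MYCN. Mouse Bmyc and Myc kept their sign under every alternative run, at -2.40 to -2.69 and 0.88 to 1.03 without leaving out a library. Bovine MYC had an uncorrected exact permutation p of 0.0390 at the same total and 0.0628 at the same total without RN18S1. The share of RN18S1 in bovine reads was 9.27% to 36.6%. Libraries with the same replicate number were not otherwise linked by the labels: their deviations correlated at 0.11 in mouse and at -0.19 to 0.34 in bovine. With 2 mouse libraries a group, both same-numbered pairs must give the same value, and the crossed pairs give -0.11. The replicate block gave 1816 calls in mouse and 1 in bovine, and of the genes named it ended the call of Npm1. Depth limits MYC, MYCL, MNT and MXI1 in bovine and Mycn and Mycl in mouse.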
